A study of Mus musculus with 36 samples.

Results

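Adipocyte identity genes and adipokines were followed in mouse knee joints at 24 h from an injury to the ACL (anterior cruciate ligament), the ligament that keeps the tibia from sliding forward. The 10 genes are Adipoq, Lep, Retn, Cfd, Fabp4, Lpl, Lipe, Scd1, Pparg and Cebpa. They were given by name and matched on the gene name in the count table, where 10 of 10 were found among 55291 genes, and 10 of 10 passed the filter on low counts that left 13823 genes. The rule uses no measured value, but the 10 genes were chosen with earlier results of these data known.

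Adipocytes store fatty acids as triglyceride and release them on demand. PPARG and C/EBP alpha are the transcription factors that drive and maintain their differentiation, and their target genes encode enzymes and carriers of fatty acid metabolism together with adipokines, hormones secreted by fat. In the knee, adipocytes lie in the infrapatellar fat pad, under the synovium and in the bone marrow, so a joint sample holds them in proportion to how much of these tissues it includes.

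The libraries came from 3 groups of 3 biological replicates, each of them called here by its group and replicate number. Mice with an ACL injury received either an inhibitor of PKC, protein kinase C (ACL_PKCi, inhibitor libraries), or 0.9% saline as vehicle (ACL, vehicle libraries), and both were set beside mice with no ACL injury (Sham). Knees were harvested at 24 h in each group, and libraries were depleted of ribosomal RNA. The inhibitor is not named in the labels, nor are strain, age, sex or the way of injury. The tissue is labelled as mouse knee joint tissue, while the protocol text of other samples in the series calls the material of this set knee cartilage.

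Each library held 124 to 202 M counts, of which 91.2% to 98.2% fell on the genes of 7SL RNA, an abundant small cytoplasmic RNA, so that protein-coding genes held 1.09 to 4.51 M counts. Inhibitor libraries 1 and 2 stood apart, with 91.5% and 91.2% on 7SL genes against 96.7% to 98.2% in the other libraries. A normalised count below is a count scaled by the effective library size (trimmed mean of M values) to the mean effective size over the 9 libraries. The 10 genes together had 894 (vehicle 2) to 5579 (inhibitor 1) raw counts per library, so Lep and Retn, with 0 to 31 counts each, are measured with the least precision. Defining adipocyte markers were present in each library, with 16 to 110 counts for Adipoq, but so were markers of other tissues, among them type II collagen of cartilage (Col2a1, 1410 ± 891, 5654 ± 1291 and 8949 ± 6480 normalised counts in inhibitor, vehicle and sham knees, SD, n = 3 each) and skeletal muscle genes. In bulk tissue, fewer adipocytes and less RNA per adipocyte cannot be told apart.

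The promoter windows of 3 genes are shown first, because Adipoq followed the other genes most closely across the libraries, Lep is the gene nearest the detection limit and Cebpa followed the others least. They come from RefSeq (GRCm38.p6, the assembly also called mm10) and run from 250 bases before to 50 bases after the annotated start, 5′ to 3′. Capitals mark matches on either strand to AGGTCA (the nuclear receptor half-site, the unit of the repeat to which PPARG binds with RXR), TTGCNNAA (a core read by C/EBP factors) or TATAAA. The windows lie on the plus strand at chr16:23146286-23146585 (Adipoq), chr6:29059971-29060270 (Lep) and chr7:35119043-35119342 (Cebpa).
Adipoq: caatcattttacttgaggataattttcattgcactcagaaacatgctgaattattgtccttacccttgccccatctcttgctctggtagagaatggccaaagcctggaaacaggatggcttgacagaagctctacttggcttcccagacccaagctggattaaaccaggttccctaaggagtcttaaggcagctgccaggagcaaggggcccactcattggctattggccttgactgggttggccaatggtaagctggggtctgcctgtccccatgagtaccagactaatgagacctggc
Lep: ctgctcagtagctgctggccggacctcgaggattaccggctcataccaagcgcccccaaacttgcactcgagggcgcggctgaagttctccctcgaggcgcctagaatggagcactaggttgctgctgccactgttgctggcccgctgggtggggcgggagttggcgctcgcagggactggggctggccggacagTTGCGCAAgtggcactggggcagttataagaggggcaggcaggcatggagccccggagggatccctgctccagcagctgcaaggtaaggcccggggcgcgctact
Cebpa: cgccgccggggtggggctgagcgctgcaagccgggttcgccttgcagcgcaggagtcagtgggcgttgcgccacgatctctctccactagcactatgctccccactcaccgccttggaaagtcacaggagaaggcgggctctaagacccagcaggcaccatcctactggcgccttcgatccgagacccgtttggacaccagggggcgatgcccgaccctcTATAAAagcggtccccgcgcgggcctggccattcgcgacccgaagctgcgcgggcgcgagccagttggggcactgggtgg

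The Lep window held the C/EBP-like core, read on both strands because the match is a palindrome, and the Cebpa window the TATA motif, while the Adipoq window held none of the searched letters. Of the 10 genes, 7 had a window in the RefSeq table, 10 windows in all since Pparg has 3 and Lipe has more than 1. The half-site was in 2 of these 10 windows, against 16.3% of 32851 windows of the same length, the C/EBP-like core in 2, against 10.8%, and the TATA motif in 2, against 13.6%. Both windows with the half-site were of Pparg, and so was 1 of the 2 windows for each other motif, so these counts are not counts of genes. The windows of Adipoq, Cfd, Retn and Lipe held none. Fabp4, Lpl and Scd1 had no window in the table.

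On a per-length scale the 10 genes covered a wide range. In sham knees Cfd came first with 344 ± 98.3 normalised counts per kb of exon, followed by Scd1 with 225 ± 52.7 and Fabp4 with 119.5 ± 30.8 (SD, n = 3 each). Adipoq followed at 56.6 ± 10.7, Cebpa at 46.8 ± 10.4, Lpl at 33.5 ± 11.9, Pparg at 24.2 ± 6.10, Lipe at 19.4 ± 2.13, Retn at 19.3 ± 8.16 and Lep at 4.45 ± 3.24. The sham values of neighbours in this order overlapped except between Scd1 and Fabp4, between Fabp4 and Adipoq and between Retn and Lep.

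After injury the transcripts of the 10 genes lay lower in vehicle knees than in sham knees by the fitted log2 fold change in each case, but by the quasi-likelihood test of edgeR none of them passed an adjusted p of 0.05. Their median log2 fold change was −0.74, beside −0.02 over all genes tested, and 10 of 10 values were negative, beside 51.9% of all genes tested. With inhibitor against vehicle, 6 of 10 values were positive (53.8% of all genes) and the median was 0.15 (0.04 over all genes), and with inhibitor against sham 7 of 10 were negative (47.6% of all genes) and the median was −0.23 (0.03 over all genes). The comparisons share libraries, so they are not separate evidence, and the 10 genes share the 9 samples. The choice of the 10 genes was also made with earlier results of these data known.

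Few genes of any kind passed. Over all genes tested, 0.304% passed for vehicle against sham (0.282% higher and 0.0217% lower), 0.731% for inhibitor against vehicle (0.0289% and 0.702%) and 3.95% for inhibitor against sham (1.27% and 2.68%). Of the 10 genes, 0 passed in any of these comparisons. At an unadjusted p under 0.05 there was 1 of the 10 for vehicle against sham (Scd1), 0 when inhibitor was set against vehicle and 2 when it was set against sham (Retn and Scd1), beside 8.28%, 13.4% and 18% of all genes. DESeq2 called 0, 0 and 1 of them, the last being Scd1 for inhibitor against sham, beside 1.12%, 2.57% and 6.44% of all genes.

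**Figure D1:**
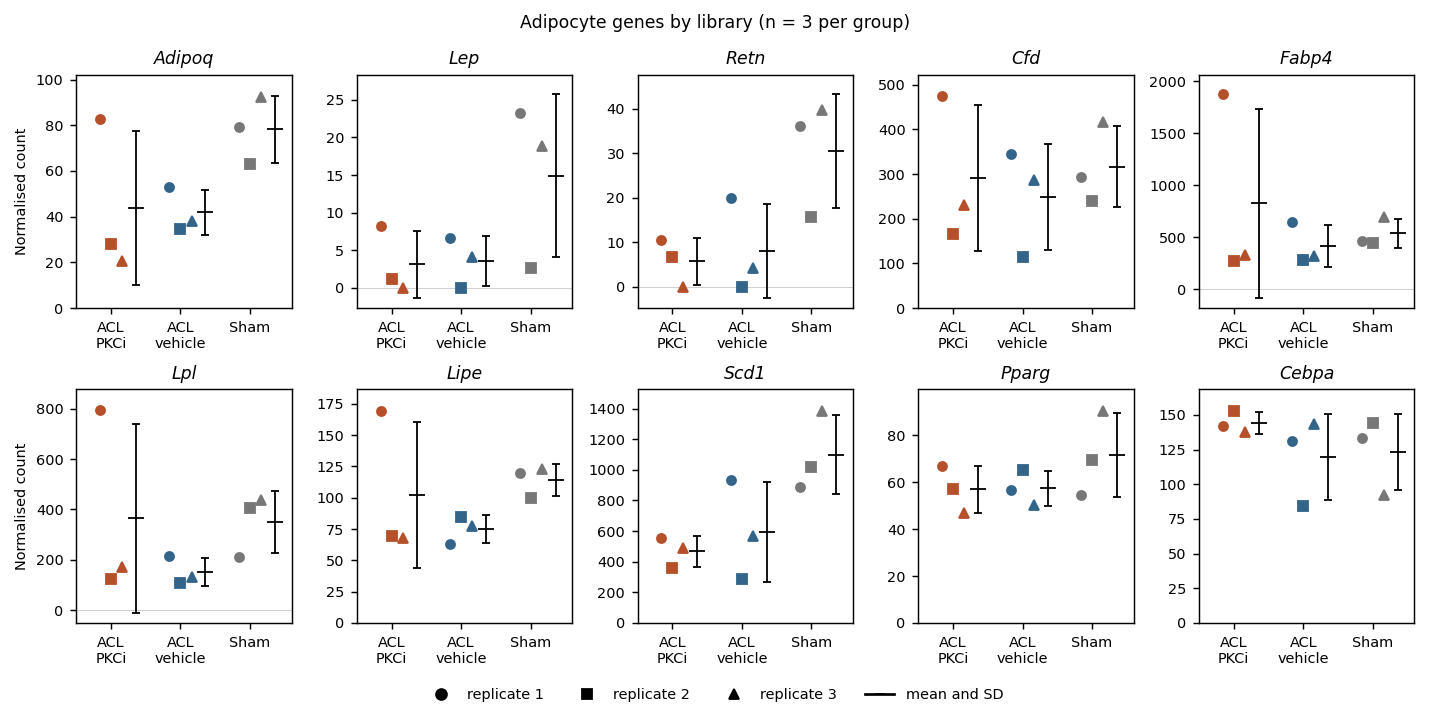
Normalised counts (y axis, linear from 0 or below) of the 10 adipocyte genes in each library of the ACL_PKCi, ACL vehicle and Sham groups (x axis). Point shapes give the replicate number and the bar beside each group its mean and SD (n = 3). Inhibitor library 1 holds the highest value of Fabp4 (1878), Lpl (797) and Lipe (169.5), while the other inhibitor libraries lie among or below the vehicle libraries for these genes.

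Among the adipokines, Retn and Lep had the largest fitted differences from sham of the 10 genes, at few counts. Adiponectin (Adipoq), a hormone made almost only by adipocytes that promotes insulin sensitivity, had 82.5, 28.1 and 20.8 normalised counts in inhibitor libraries 1 to 3, 53.2, 34.5 and 38.2 in vehicle libraries 1 to 3, and 79.1, 62.9 and 92.4 in sham libraries 1 to 3. The vehicle libraries all lay below the sham libraries, as they did for 8.76% of all genes tested, and inhibitor library 1 lay with the sham libraries while inhibitor libraries 2 and 3 were the lowest of the 9. The log2 fold change was −0.90 (SE 0.45, adjusted p = 0.629) for vehicle against sham, 0.08 (SE 0.44, adjusted p = 0.958) for inhibitor against vehicle and −0.82 (SE 0.43, adjusted p = 0.345) for inhibitor against sham. Adipoq lies on mm10 at chromosome 16 from 23146536 to 23158028.

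Leptin (Lep), the adipokine that signals fat stores to the hypothalamus, was close to the limit of detection. Its raw counts were 11, 3 and 0 in inhibitor libraries 1 to 3, 4, 0 and 3 in vehicle libraries and 20, 2 and 10 in sham libraries. Sham 1 and sham 3 were the high libraries, and sham 2 overlapped both injured groups. The fitted log2 fold changes were −2.11 (SE 1.17, adjusted p = 0.669) for vehicle against sham and −2.17 (SE 1.08, adjusted p = 0.314) for inhibitor against sham, and the interval for inhibitor against vehicle ran from −2.77 to 2.65, so that a difference between the injured groups was not detectable at this depth. Lep lies at chromosome 6 from 29060220 to 29073877.

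Resistin (Retn), in the mouse a product of adipocytes that opposes insulin action, was also at few counts. It had 14, 17 and 0 counts in inhibitor libraries 1 to 3, 12, 0 and 3 in vehicle libraries and 31, 12 and 21 in sham libraries, or 5.71 ± 5.31, 8.01 ± 10.5 and 30.5 ± 12.9 normalised counts (SD, n = 3 each). After scaling, the inhibitor libraries all lay below the sham libraries, as for 11.6% of all genes, and vehicle 1 overlapped sham 2. The log2 fold change was −2.27 for inhibitor against sham (SE 0.97, adjusted p = 0.237) and −1.999 for vehicle against sham (SE 1.02, adjusted p = 0.652). Retn lies at chromosome 8 from 3655770 to 3660110.

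Adipsin (Cfd) is complement factor D, the serine protease that activates the alternative complement pathway. It had a smaller fitted difference for vehicle against sham than Adipoq, Lep and Retn. It had 475.5, 167 and 229.8 normalised counts in inhibitor libraries 1 to 3, 344, 115 and 288 in vehicle libraries and 294, 239.9 and 417 in sham libraries. All 3 groups overlapped. Its log2 fold change was −0.35 (95% interval −1.48 to 0.78, adjusted p = 0.916) for vehicle against sham and 0.23 (−0.89 to 1.35, adjusted p = 0.88) for inhibitor against vehicle. Cfd lies at chromosome 10 from 79890853 to 79892655.

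Among the lipid enzymes, stearoyl-CoA desaturase 1 (Scd1), which makes monounsaturated fatty acids for triglyceride and membranes, came closest to the threshold. Its normalised counts were 554, 359.9 and 487 in inhibitor libraries 1 to 3, 936, 286 and 565 in vehicle libraries and 888, 1021 and 1386 in sham libraries. The inhibitor libraries all lay below the sham libraries, inhibitor 1 included, as for 11.6% of all genes. Vehicle 1 reached the sham range and vehicle 2 was the lowest library of all. For inhibitor against sham the log2 fold change was −1.23 (SE 0.37, unadjusted p = 0.00653, adjusted p = 0.094), a mean of 467 ± 98.7 against 1099 ± 258. For vehicle against sham it was −0.89 (SE 0.37, adjusted p = 0.527), and for inhibitor against vehicle −0.35 (SE 0.36, adjusted p = 0.717).

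The direction of Scd1 for inhibitor against sham was the same in 16 of 16 alternative settings, and it passed in 6 of them, with adjusted p between 2.51e-05 and 0.478 over all 16. It passed in DESeq2 (adjusted p = 0.0167), with no filter (2.51e-05), with only the compared groups fitted (0.0381), with a replicate block (0.0403), and without vehicle 1 (0.0365) or vehicle 2 (0.0209). In these fits 6.44%, 3.92%, 1.5%, 3.04%, 2.57% and 2.68% of all genes passed, in that order. The vehicle libraries are not part of this comparison, and Scd1 did not pass in any fit that left out a sham or inhibitor library. Scd1 lies at chromosome 19 from 44394455 to 44407879.

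Lipoprotein lipase (Lpl), which frees fatty acids from circulating triglyceride for uptake by adipocytes and muscle, was dominated by a single library. It had 797, 125 and 173 normalised counts in inhibitor libraries 1 to 3, 214, 108 and 132 in vehicle libraries and 209, 405 and 439 in sham libraries. Inhibitor 1 was the highest of the 9 libraries, inhibitor 2 and 3 lay within the vehicle range, and vehicle 1 overlapped sham 1. The log2 fold change was −1.22 (SE 0.77, adjusted p = 0.752) for vehicle against sham, 1.28 (SE 0.77, adjusted p = 0.526) for inhibitor against vehicle and 0.06 (SE 0.74, adjusted p = 0.978) for inhibitor against sham. For vehicle against sham Lpl passed with only the compared groups fitted (adjusted p = 0.047). With only the compared groups fitted, 2.3% of all genes passed for vehicle against sham. Lpl lies at chromosome 8 from 68880491 to 68907448.

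Hormone-sensitive lipase (Lipe), which releases fatty acids from stored triglyceride, was also highest in inhibitor library 1. Its normalised counts were 169.5, 69.3 and 67.5 in inhibitor libraries 1 to 3, 63.1, 84.4 and 77.8 in vehicle libraries and 119.8, 99.6 and 123 in sham libraries. The vehicle libraries all lay below the sham libraries, as for 8.76% of all genes, and inhibitor 1 lay above the sham libraries. The log2 fold change for vehicle against sham was −0.59 (SE 0.33, adjusted p = 0.68), a mean of 75.1 ± 10.9 against 114 ± 12.5. Lipe lies at chromosome 7 from 25379527 to 25398710.

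Fabp4, the fatty acid carrier of adipocytes that capillary endothelium and macrophages also express, had 1878, 274 and 328 normalised counts in inhibitor libraries 1 to 3, 648, 284 and 317 in vehicle libraries and 465, 448 and 696 in sham libraries. Inhibitor 1 was the highest of the 9 libraries, with sham 3 next, and the other inhibitor libraries lay within or just below the vehicle range. The intervals of its log2 fold change were wide, −2.29 to 1.56 for vehicle against sham, −0.93 to 2.92 for inhibitor against vehicle, and for inhibitor relative to sham −1.28 to 2.54. DESeq2 gave no p for Fabp4 in these comparisons. Fabp4 lies at chromosome 3 from 10204088 to 10208576.

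The transcription factors varied little. Pparg, the nuclear receptor on which adipocyte identity depends, had 66.8, 57.3 and 46.7 normalised counts in inhibitor libraries 1 to 3, 56.5, 65.4 and 50.5 in vehicle libraries and 54.6, 69.5 and 90.5 in sham libraries. All groups overlapped. The 95% interval of its log2 fold change ran from −0.93 to 0.33 for vehicle against sham and from −0.63 to 0.61 for inhibitor against vehicle. Pparg lies at chromosome 6 from 115360951 to 115490399.

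Cebpa, which encodes C/EBP alpha and is also a factor of granulocyte precursors in bone marrow, had 142, 153 and 138 normalised counts in inhibitor libraries 1 to 3, 131, 84.4 and 143 in vehicle libraries and 134, 144 and 92.4 in sham libraries. The inhibitor libraries lay at the upper end of a range that all groups shared. The log2 fold changes were −0.06 (95% interval −0.59 to 0.47) for vehicle against sham and 0.28 (−0.24 to 0.80) for inhibitor against vehicle, with adjusted p of 0.982 and 0.658. Cebpa lies at chromosome 7 from 35119293 to 35121928. None of the 10 genes shares an exon base with another gene on its strand in the count table's annotation.

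**Figure D2:**
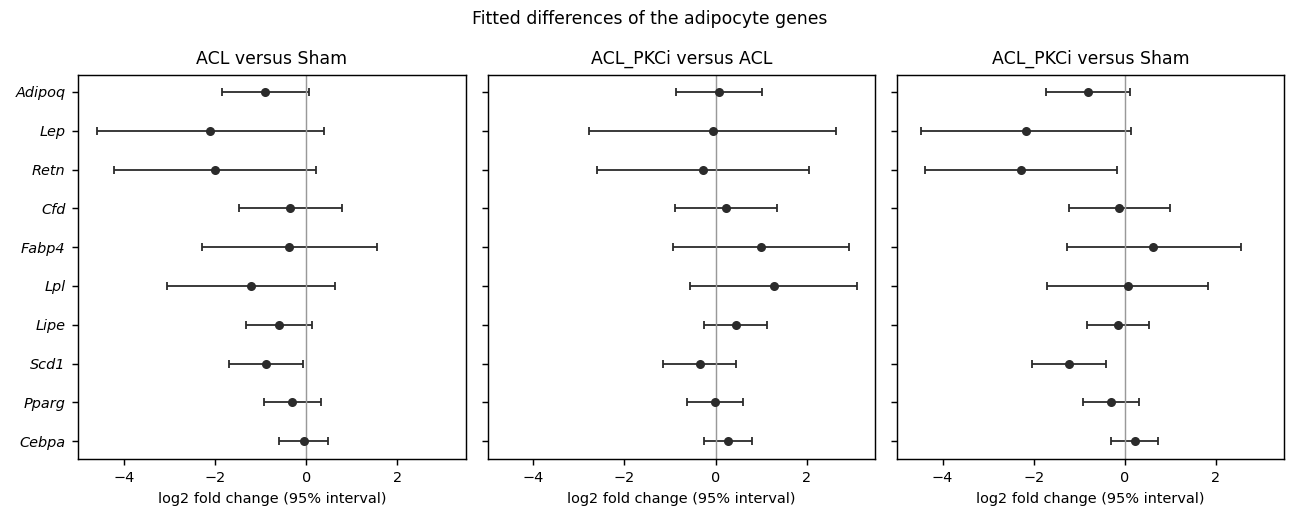
Fitted log2 fold changes (x axis) of the 10 adipocyte genes (y axis) in the comparisons ACL versus Sham, ACL_PKCi versus ACL and ACL_PKCi versus Sham, with 95% intervals as bars. For ACL versus Sham all points lie left of 0, and for ACL_PKCi versus Sham the intervals of Retn and Scd1 exclude 0 before adjustment.

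Inhibitor library 1 decided the direction of several genes. It was the highest inhibitor library for Adipoq, Lpl and Fabp4, so leaving it out lowers their inhibitor means. The fit without it is 1 of 9 fits with a library left out, picked with these values in view, so its calls are a description. Without it, the median of the 10 genes for inhibitor against sham was −1.04 in place of −0.23, and 2 of them fell past the threshold, Adipoq with a log2 fold change of −1.62 (adjusted p = 0.0112) and Lpl with −1.25 (adjusted p = 0.0376). In that fit 3.56% of all genes passed as lower and 5.95% in either direction. Fabp4 moved to −0.83 (adjusted p = 0.145), against 0.63 with all libraries. Scd1 stood at −1.37 (adjusted p = 0.1) and Cebpa at 0.23. For inhibitor against vehicle, leaving out inhibitor 1 moved Adipoq to −0.72, Fabp4 to −0.46, Cfd to −0.33 and Lipe to −0.13, and the median to −0.39, with 0 of 10 passing beside 0.65% of all genes.

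**Figure D3:**
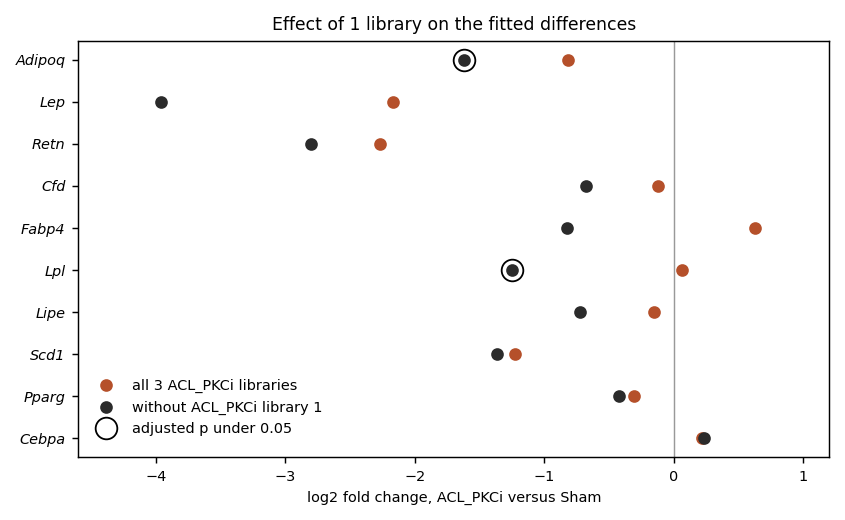
Log2 fold changes for ACL_PKCi versus Sham (x axis) of the 10 adipocyte genes (y axis), fitted with all 3 ACL_PKCi libraries and without ACL_PKCi library 1. Open circles mark an adjusted p under 0.05, which Adipoq (−1.62) and Lpl (−1.25) reached without that library. Lep rests there on 3 counts in the ACL_PKCi group.

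Markers of other tissues differed between the same libraries. The 16 skeletal muscle markers, 16 of 16 counted, summed to 113700, 6263 and 13860 normalised counts in inhibitor libraries 1 to 3, 21540, 13090 and 17830 in vehicle libraries and 21850, 25590 and 53410 in sham libraries. The highest 2 libraries in muscle, inhibitor 1 and sham 3, were also the highest 2 in the mean log2 level of the adipocyte genes (7.23 and 7.36, against 5.40 to 7.05 in the other libraries). The 16 muscle genes had a median log2 fold change of −1.14 for vehicle against sham, with 16 negative and 0 past the threshold. Inhibitor libraries 2 and 3, on which the calls of Adipoq and Lpl without inhibitor 1 rest, had muscle sums below each sham library. The part of muscle content in the differences of the adipocyte genes was not tested.

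The 12 endothelial markers, 12 of 12 counted, summed to 3563, 821 and 999.5 normalised counts in inhibitor libraries 1 to 3, 1409, 1193 and 1247 in vehicle libraries and 1002, 1197 and 2174 in sham libraries. Inhibitor 1 was again the highest, and Fabp4, a gene of capillary endothelium too, was highest there. The 12 macrophage markers summed to 3140 to 4452 in inhibitor, 2587 to 3913 in vehicle and 2723 to 3246 in sham libraries, and the 12 neutrophil and granulocyte precursor markers, cells in which Cebpa is active, to 9058 to 19040, 9075 to 11530 and 16560 to 22940. No marker of these lists was at 0 over all libraries. The neutrophil markers had 12 of 12 negative log2 fold changes for vehicle against sham, with a median of −0.87 and 1 past the threshold (Ltf, lactoferrin), beside 0.0217% of all genes lower, where Cebpa was at −0.06. With inhibitor against sham they had 11 of 12 negative values, a median of −1.15 and 7 that fell, beside 2.68% of all genes. The 12 cartilage markers summed to 2423, 2021 and 5417 in inhibitor libraries, 10500, 8751 and 11430 in vehicle libraries and 10390, 9138 and 26950 in sham libraries, and 4 of the 10 tested fell for inhibitor against sham, beside the same 2.68%. The part of endothelium, marrow cells and cartilage in the levels was not tested.

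**Figure D4:**
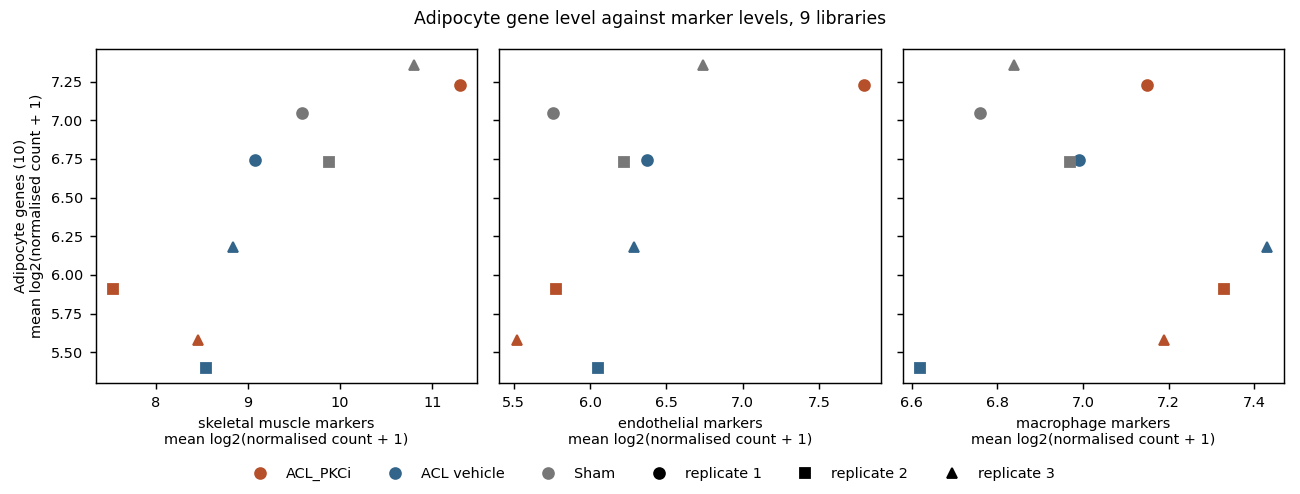
Mean log2(normalised count + 1) of the 10 adipocyte genes (y axis) against the same mean of skeletal muscle, endothelial and macrophage markers (x axes) in the 9 libraries, coloured by group and shaped by replicate. Inhibitor library 1 and sham 3 lie at the upper right for muscle (11.3 and 10.8). For macrophage markers vehicle 2, with the lowest adipocyte level, also has the lowest marker level (6.62). The next lowest in adipocyte level, inhibitor 3, inhibitor 2 and vehicle 3, have the highest macrophage marker levels (7.19, 7.33 and 7.43).

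The 10 genes were not a single unit across the libraries. With the mean standardised log2 level of the other 9 genes over 9 libraries, Pearson's r was 0.91 for Adipoq, 0.85 for Lpl, 0.83 for Lep, 0.83 for Cfd, 0.81 for Retn, 0.78 for Fabp4, 0.72 for Scd1, 0.70 for Lipe and 0.47 for Pparg, but −0.04 for Cebpa. These values are a description, since the libraries share scaling and differ in tissue content. Outside the 10, the genes most like their mean profile, among 7799 genes of at least 50 normalised counts on average, included Cox6a2, the striated muscle form of a cytochrome oxidase subunit (r = 0.96), Tcap, the titin cap of the sarcomere (0.95), Pgm1, phosphoglucomutase (0.95), and Ndufa4, a respiratory chain subunit (0.93). Without vehicle 2 and inhibitor 3, the libraries farthest from the median profile, these r values were 0.85 to 0.95. The genes had been picked by r over all 9 libraries and were not ranked again, so this is no separate check of the likeness. The 50 most similar genes held 5 of the 15 muscle markers that were candidates (Acta1, Mb, Myh2, Tnni2 and Atp2a1), and from the lists of lipid genes Pnpla2, Gpd1 and Slc2a4, names that were chosen after this order was seen.

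Ratios of raw counts within a library do not depend on the scaling between libraries. Fabp4 had 22.8, 9.78 and 15.8 counts per Adipoq count in inhibitor libraries 1 to 3, 12.2, 8.24 and 8.29 in vehicle libraries, and 5.88, 7.12 and 7.53 in sham libraries. Both injured groups thus lay above the sham range for this ratio, a choice made with its values in view and given without a test. The denominator Adipoq was itself lower in all vehicle libraries than in sham libraries, so a gene of unchanged level gains on it. Cebpa in vehicle libraries (2.47, 2.45 and 3.75 against 1.69, 2.29 and 1 in sham) also lay above the sham range. So did Lipe in inhibitor libraries (2.05, 2.47 and 3.25 against 1.51, 1.58 and 1.33). Retn in inhibitor libraries lay below its sham range, at 0.127, 0.236 and 0. The share of all genes with such a separation was not determined. Cfd had 5.76, 5.94 and 11.1 counts per Adipoq count in inhibitor libraries, 6.47, 3.34 and 7.54 in vehicle libraries and 3.72, 3.81 and 4.51 in sham libraries, so the inhibitor libraries lay above the sham range and the vehicle libraries did not all do so. For Scd1 the same ratio overlapped in all groups, at 6.72 to 23.4, 8.31 to 17.6 and 11.2 to 16.2.

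Other genes of lipid handling passed the test. Of 12 lipid droplet and fat-cell structure genes 10 were tested, and 1 rose and 0 fell for vehicle against sham, beside 0.282% and 0.0217% of all genes. The riser was Plin2, a lipid droplet coat protein of many cell types, with 709.5, 353 and 600.2 normalised counts in vehicle libraries against 157, 159.9 and 113 in sham libraries (log2 fold change 1.94, SE 0.31, adjusted p = 0.0247), a call kept in 10 of 16 alternatives. Plin2 also rose for inhibitor against sham (log2 fold change 1.98, adjusted p = 0.00592), where it passed in 16 of 16 alternatives. Over the 10 tested genes of the list, 4 log2 fold changes were positive and 6 negative for vehicle against sham, with a median of −0.14. At an unadjusted p under 0.05 there was 1 higher and 1 lower, beside 8.28% of all genes. The vehicle libraries all lay above the sham libraries for 1 and below for 3, as for 8.2% and 8.76% of all genes. Cidec and Plin1 are among those 3, named after their values were seen. They did not pass (log2 fold change −2.097 and −1.695, adjusted p = 0.408 and 0.717). Cidec had 9.509 to 20.46 normalised counts in vehicle against 38.02 to 94.29 in sham libraries.

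Among 11 genes of lipid uptake and lipoprotein lipase handling, 10 were tested, and 1 rose for vehicle against sham (0.282% of all genes) and 2 for inhibitor against sham (1.27% of all genes), with 0 falling in either. Angptl4, a secreted inhibitor of lipoprotein lipase, had 67.5, 108 and 110.3 normalised counts in inhibitor libraries, 109.7, 89.2 and 165 in vehicle libraries and 18.6, 31.5 and 50.9 in sham libraries. Both injured groups lay above the sham range, as vehicle did for 8.2% and inhibitor for 11.2% of all genes. The log2 fold change was 1.89 (SE 0.37, adjusted p = 0.0415) for vehicle and 1.54 (SE 0.36, adjusted p = 0.0299) for inhibitor. Each call was kept in 10 of 16 alternatives. Fabp5, the epidermal fatty acid carrier that macrophages also make, rose for inhibitor against sham, with 124, 189 and 179 normalised counts against 101, 77.4 and 86.8 (log2 fold change 0.89, SE 0.23, adjusted p = 0.0426, kept in 5 of 16 alternatives). The vehicle libraries, at 135, 121 and 146, also lay above the sham libraries, as for 8.2% of all genes (log2 fold change 0.60, SE 0.23, adjusted p = 0.448). Cd36, a fatty acid transporter, was at 579.8 ± 650 in inhibitor, 325 ± 83.9 in vehicle and 229.7 ± 78.5 in sham knees and did not pass.

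The 14 genes of fatty acid and triglyceride synthesis were all tested, and 0 passed for vehicle against sham or inhibitor against vehicle. At an unadjusted p under 0.05 there were 2 and 1, each lower, beside 8.28% and 13.4% of all genes in either direction. When inhibitor was set against sham 2 fell, beside 2.68% of all genes. Fasn, fatty acid synthase, had 214, 259 and 288 normalised counts in inhibitor libraries against 355, 419.5 and 762 in sham libraries (log2 fold change −1.01, SE 0.26, adjusted p = 0.0458, kept in 4 of 16 alternatives). The vehicle libraries, at 297, 284 and 211, also all lay below the sham libraries, as for 8.76% of all genes. For vehicle Fasn did not pass (log2 fold change −0.95, SE 0.27, adjusted p = 0.201). Dgat1, which joins the last fatty acid to triglyceride, had 42.0, 58.0 and 49.3 in inhibitor libraries against 100.0, 95.7 and 151 in sham libraries (log2 fold change −1.20, SE 0.28, adjusted p = 0.0306, kept in 9 of 16 alternatives), and the vehicle libraries, at 115, 71.3 and 123, overlapped the sham libraries. The inhibitor libraries all lay below the sham libraries for both Fasn and Dgat1, as for 11.6% of all genes. Acly, which supplies the acetyl-CoA for this synthesis and was the most abundant gene of the list per length, did not pass (318 ± 68.5 in inhibitor, 279.8 ± 12.7 in vehicle and 275 ± 16.4 in sham knees).

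Of the lipolysis genes, Pnpla2, the lipase that starts triglyceride breakdown, was at 225 ± 98.9 normalised counts in inhibitor, 148 ± 65.4 in vehicle and 222.1 ± 37.0 in sham knees and did not pass.

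Of the 12 adipogenic transcription regulators and 12 tested of 14 other adipokines 0 passed in any comparison. At an unadjusted p under 0.05 there were 2, 1 and 3 of the regulators in the comparisons of vehicle with sham, inhibitor with vehicle and inhibitor with sham, and of the adipokines 4, 0 and 3, beside 8.28%, 13.4% and 18% of all genes. The stress-induced regulator Cebpb was at 156 ± 68.5 in inhibitor, 195 ± 69.5 in vehicle and 66.0 ± 16.6 in sham knees (adjusted p = 0.0604 for inhibitor against sham and 0.12 for vehicle against sham). Of 13 receptor and insulin response genes 1 passed when inhibitor was set against sham (1.27% of all genes higher). C3ar1, the receptor of complement fragment C3a and also a macrophage gene, rose for inhibitor against sham (42.0, 140 and 121 against 13.9, 13.1 and 9.43 normalised counts, log2 fold change 3.02, SE 0.46, adjusted p = 0.00375). The vehicle libraries, at 63.1, 44.0 and 76.4, also lay above the sham libraries for C3ar1, as for 8.2% of all genes (log2 fold change 2.29, SE 0.47, adjusted p = 0.0565). The adiponectin receptor Adipor1 was at 568 ± 41.5, 531 ± 158 and 591 ± 73.0 in inhibitor, vehicle and sham knees and did not pass.

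Of 10 adipocyte precursor genes 9 were tested, and Pi16, a marker of fibroblasts that include adipocyte precursors, fell for inhibitor against sham, as 2.68% of all genes did. It had 115.5, 74.0 and 72.7 normalised counts in inhibitor libraries, 126, 114 and 124 in vehicle libraries and 195, 174 and 264 in sham libraries. The inhibitor and vehicle libraries all lay below the sham libraries, as for 11.6% and 8.76% of all genes. The log2 fold change was −1.26 (SE 0.24, adjusted p = 0.0114) for inhibitor and −0.79 (SE 0.24, adjusted p = 0.271) for vehicle. Of 7 thermogenic genes 4 were tested and 0 passed in any comparison. At an unadjusted p under 0.05 there were 1, 0 and 1, beside 8.28%, 13.4% and 18% of all genes.

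**Figure D5:**
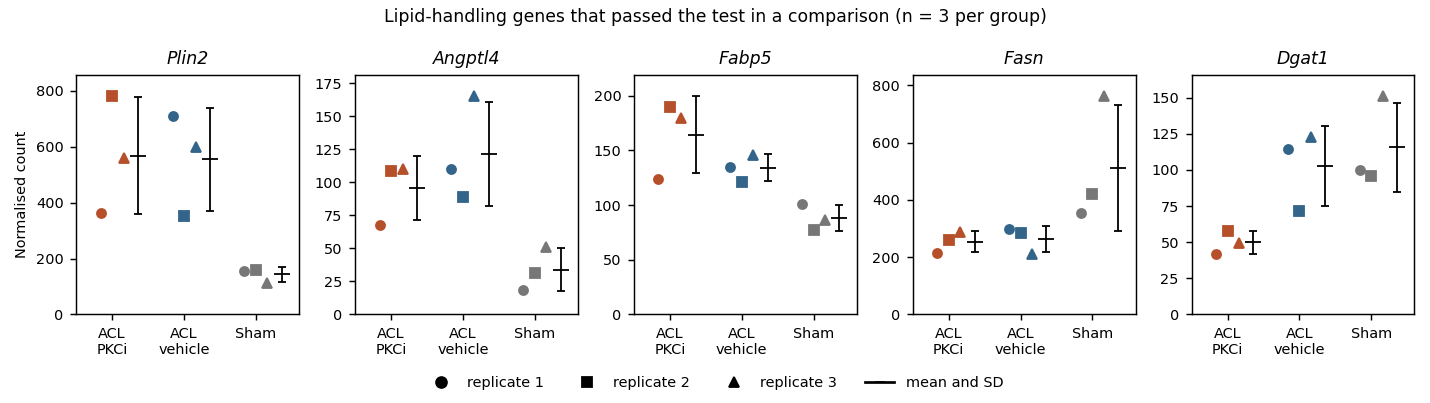
Normalised counts (y axis, linear from 0) of 5 lipid-handling genes outside the 10 that passed the test in a comparison, in each library of the ACL_PKCi, ACL vehicle and Sham groups (x axis), with the mean and SD beside each group (n = 3). Plin2, Angptl4 and Fabp5 lie higher in both injured groups than in Sham, Fasn lies lower in both, and Dgat1 lies lower in ACL_PKCi than in ACL vehicle and Sham.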

How the data were processed

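RNA of 9 mouse knee libraries was analysed. The deposited table holds raw read counts per gene name, made with featureCounts 2.0.1 for reverse-stranded pairs over GENCODE M25 exons, per the file headers. Its options counted a multi-mapping read at each of its locations and a read over several genes once per gene. Exon lengths come from the same table, where the authors deposited them beside the counts. The submitters' processing notes name HISAT2, without a version, and mm10. The 27 columns of the other tables, whose codes could not be matched to sample labels, were not used.

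Counts were filtered (filterByExpr, 13823 of 55291 genes), scaled by TMM and fitted together with edgeR 4.0.16 in R 4.3.3 (robust quasi-likelihood, a mean per group). Tests are two-sided, and p-values were adjusted over all tested genes (Benjamini-Hochberg, threshold 0.05). SE is the log2 fold change over the square root of F. The procedure was tested on simulated data. Genes named outside the 10 passed the test, were among the 4 most abundant of their list per length, or are said to be chosen after their values were seen. Some genes that met this rule are not reported here. The 10 genes and the lists were chosen with earlier results of these data known. Depth was 1.09 to 4.51 M protein-coding counts. Alternatives were DESeq2 1.42.0, its size factors, no filter, only the compared groups, a replicate block, protein-coding genes by GENCODE M21, and libraries left out. Figures were drawn with matplotlib 3.10.9.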

Additional observations from a re-analysis of the deposited data

How the results depend on the processing

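Over 16 alternatives, 153 of 157 values of the 10 genes kept their direction for vehicle against sham, 133 of 157 for inhibitor against vehicle and 146 of 157 for inhibitor against sham, and 3, 0 and 9 of them passed the threshold. The cause of the changes below was not tested, beyond that no filter tests more genes and the fits of the compared groups use fewer samples.

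All genes called for vehicle against sham numbered 42, against 262 with no filter, 291 with only the compared groups, 24 with the replicate block, 301 without inhibitor libraries 1 and 2, 155 in DESeq2 and 1 to 234 when a single library was left out. For inhibitor against vehicle there were 101, against 554 with no filter, 3 with only the compared groups, 20 without inhibitor libraries 1 and 2, 355 in DESeq2 and 0 to 256 with a library left out, the 0 being without vehicle 2. For inhibitor against sham there were 546, against 1056, 198, 174, 890 and 141 to 841.

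Of the 10 genes, 0 were called for vehicle against sham in the main fit. With no filter 1 was called (Scd1), beside 0.973% of all genes, and with only the compared groups 1 (Lpl), beside 2.3%. With a library left out 0 were called in each fit. Calls of the 10 genes without inhibitor libraries 1 and 2 are left out here, since that fit holds 1 inhibitor library. For inhibitor against sham 0 were called in the main fit. With no filter 2 were called (Retn and Scd1), beside 3.92% of all genes. Only Scd1 was called with only the compared groups, the replicate block and DESeq2, beside 1.5%, 3.04% and 6.44%. With a library left out 0 to 2 were called, beside 0.972% to 5.95% of all genes. In those fits the median ranged from −1.04 (without inhibitor 1) to −0.0994. For inhibitor against vehicle 0 were called in each alternative, and the median ranged from −0.394 (without inhibitor 1) to 0.432 with a library left out.

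Directions changed as follows. For inhibitor against vehicle, Pparg was at 0.0454 with no filter, and without inhibitor libraries 1 and 2, where the lone inhibitor library is assumed to vary like the other groups, Adipoq was at −0.996, Fabp4 at −0.34, Cfd at −0.11 and Lipe at −0.16. For inhibitor against sham, Fabp4 was at −0.69 and Lpl at −1.0 in that fit. With a library left out, the ranges for inhibitor against vehicle were −0.72 to 0.37 (Adipoq), −0.46 to 1.45 (Fabp4), −0.0288 to 1.67 (Lpl), −0.12 to 0.10 (Pparg), −0.33 to 0.52 (Cfd), −0.13 to 0.65 (Lipe), −0.94 to 1.60 (Retn), −1.86 to 0.68 (Lep) and −0.71 to 0.13 (Scd1). For inhibitor against sham they were −0.83 to 1.04 (Fabp4), −1.25 to 0.47 (Lpl), −0.68 to 0.16 (Cfd) and −0.73 to 0.0738 (Lipe), and for vehicle against sham −0.65 to 0.0217 (Cfd) and −0.22 to 0.17 (Cebpa).

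Same-numbered libraries did not deviate together (r of deviations −0.229 to 0.068, and 4, 2 and 0 of 6 libraries correlated best with their own number in the 3 comparisons). With the replicate block, Adipoq was at −0.0558, Retn at 0.0357 and Lep at 0.0094 for inhibitor against vehicle, Lpl at −0.42 for inhibitor against sham, and calls numbered 24, 103 and 420.

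Of the other lipid genes called, Plin2 and C3ar1 for inhibitor against sham passed in 16 of 16 alternatives and Pi16 in 15, the exception being without sham 3 (adjusted p = 0.0574). For vehicle against sham Plin2 and Angptl4 passed in 10 each, missing the threshold without sham 1, sham 2, vehicle 1 or vehicle 3, Plin2 also without sham 3 and with the replicate block, and Angptl4 also without vehicle 2 and inhibitor 3. For inhibitor against sham Fasn passed in 4, Fabp5 in 5, Dgat1 in 9 and Angptl4 in 10. All of these kept their direction. Lep and Retn, at 0 to 31 counts a library, are limited by depth.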
